A study of Drosophila melanogaster with 18 samples.

Results

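Genes of the sarcomere, the contractile unit of muscle, were followed through a diet-switch experiment in Drosophila melanogaster. The members were array probes whose annotation lists a single gene out of a fixed set of thick-filament, thin-filament, giant and Z-disc genes, with a value on all 6 slides. This rule kept 13 probes of 8 genes out of 5620 probes on the array, of which 5002 had a value on all slides. The 8 genes were Mf, Mlc2, Prm and fln of the thick filament, up of the thin filament, bt and sls among the giant proteins, and Zasp52 of the Z-disc. Of the 19 symbols written out in the rule, 11 had no probe of their own under that symbol, namely Mhc, Mlc1, the actins Act57B, Act79B, Act87E and Act88F, the tropomyosins Tm1 and Tm2, wupA, Unc-89 and Mp20, and there were 0 probes for troponin C (TpnC) genes. Looked up by gene identifier among the synonyms of the reference gene table, 10 of the 11 still had no probe, while Unc-89 is listed there as an older symbol of Obsc, which has 1 probe. That probe is not a member by the symbols of the rule, and its values are given beside the giant proteins. The thin filament was thus represented by troponin T alone.

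Total RNA of animals moved to banana was compared on 2-colour slides with total RNA of animals on the cornmeal control diet. Channel 1 held banana RNA on 3 slides and cornmeal RNA on the other 3, and the labels join them into 3 dye-flip pairs, slides 2 and 3 (pair 1), 30 and 29 (pair 2) and 28 and 25 (pair 3). Each slide holds 3 sets of replicate spots, which gives 18 columns of values. The labels give no strain, genotype, age, stage, sex, tissue or length of the diet, and whether each pair had its own culture is not said, so the spread between pairs may be technical. The pair was the unit of replication, and with 6 arrays every value has limited precision.

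The sarcomere is built from interdigitating filaments. Thick filaments of myosin, with paramyosin and myofilin in their core, slide along thin filaments of actin, tropomyosin and the troponin complex, and calcium binding to troponin switches the interaction on. Giant proteins of the titin family tie the thick filaments to the Z-discs, where thin filaments are anchored. In insects these genes serve larval body wall muscle, gut and heart muscle and the adult flight and leg muscles, often through muscle-specific isoforms.

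Values below are log2 ratios of the channels, centred on the median of each slide and turned to the sign of slides with banana RNA in channel 1. The labels do not state which channel is the numerator, so a positive value may stand for a higher level on banana or on cornmeal, and the diet with the higher level stays unnamed. Before turning, the slides of a pair correlated at r = -0.20, -0.39 and -0.08 over the 5002 probes in pairs 1, 2 and 3, so Pearson's r was below 0 in all 3 pairs. By rank, the slides of pair 3 ran the same way, with a Spearman's rho of 0.12 before turning, against -0.18 and -0.23 in pairs 1 and 2. Over the 13 sarcomere probes the turned slides of a pair correlated at r = -0.38, 0.81 and 0.35 in pairs 1, 2 and 3. The value of pair 1 includes Prm probe 3469, which stood at 4.22 on slide 2, from a single spot, and at -1.02 on slide 3. Pearson's r without that probe is not given here. Between the turned pair ratios r lay between -0.17 and 0.18. A ratio cannot tell fewer muscle cells from less RNA per muscle cell.

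Over all 13 probes, ratios lay mostly on the positive side, but none passed the multiple-testing threshold. The mean ratio was positive for 12 of the 13 probes, where 49.6% of all probes tested had a positive mean. Their median ratio was 0.39, against 0.00 over all probes. In limma, 0 member probes had an adjusted p under 0.05, and so had 0% of all probes. An unadjusted limma p under 0.05 was reached by 5 member probes, all positive, against 7.96% of all probes for either sign and 4.26% for positive ratios. These were Mf, Mlc2, a probe of up and 2 probes of bt. In such counts bt enters with 3 probes and up, sls and Prm with 2 each. With probes of 1 gene averaged, 4 of the 8 genes had an unadjusted limma p under 0.05, against 384 of all 4722 rows. The median ratio of the 8 genes was then 0.32.

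**Figure D1:**
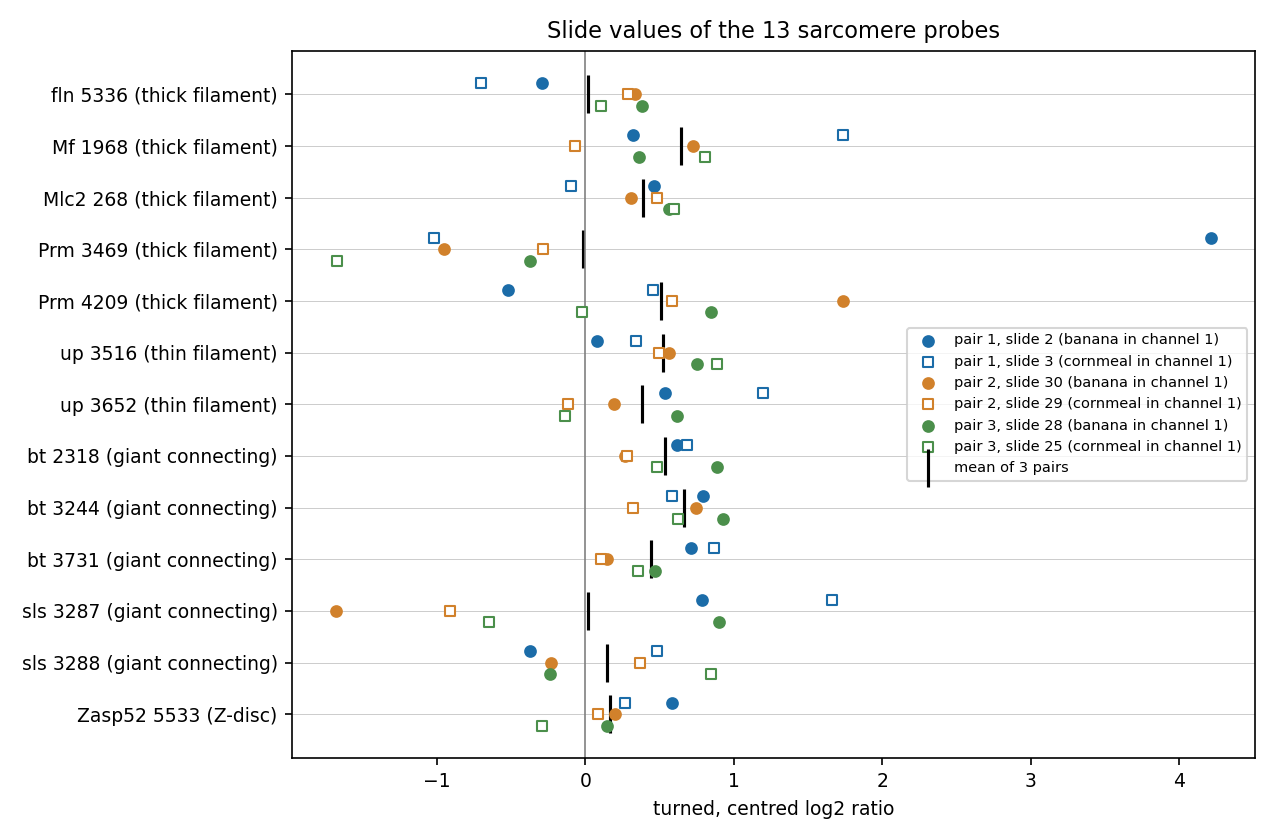
Turned log2 ratios (horizontal axis) of the 13 sarcomere probes on each of the 6 slides. Filled circles are slides with banana RNA in channel 1, open squares slides with cornmeal RNA in channel 1, colours mark the flip pair and black bars the mean of the 3 pairs. The 3 bt probes and up probe 3516 lie above 0 on all 6 slides, sls probe 3287 ranges from -1.68 to 1.66, and 1 slide of Prm probe 3469 stands at 4.22.

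In each of the 3 pairs 11 of the 13 probes were positive, where 49.2%, 51.4% and 50.2% of all probes were positive in pairs 1, 2 and 3. The exceptions differed by pair. They were fln and Prm probe 4209 in pair 1, sls probe 3287 and Prm probe 3469 in pair 2, and Prm probe 3469 and Zasp52 in pair 3. A total of 8 probes were positive in all 3 pairs (15.2% of all probes), 0 were negative in all 3 (15.1%), and 4 were positive on all 6 slides (3.82%). Among the 8, sls probe 3288 had a pair 1 ratio of -0.21 with the median over spots in place of the mean. Of the 224 single spots of the 13 probes, 168 were positive after each column was centred. Centring on the median places as many values of a column above 0 as below it. The spots of a slide are repeat readings and not separate observations of the diet comparison.

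Among thick-filament genes, Mf and Mlc2 had positive ratios in every pair, Prm gave discordant probes and fln averaged close to 0. Mf encodes myofilin, a protein of the thick-filament core. Its slide values were 0.32 and 1.74 in pair 1, 0.73 and -0.07 in pair 2, and 0.36 and 0.80 in pair 3. Of the 6 slides 5 were positive, and slide 3 stood highest. The pair ratios of 1.03, 0.33 and 0.58 averaged 0.65 ± 0.36 (SD, n = 3), a 1.57-fold difference. The limma adjusted p was 0.529 and the unadjusted p 0.0182. The height of slide 3 came from 1 spot: its 3 spots ranged from 0.62 to 3.81, and with the median over spots in place of the mean the pair 1 ratio was 0.55 and the mean 0.51. Another probe, annotated to both Mf and Mhcl and therefore not a member, had pair ratios of 0.37, 0.24 and 0.49, with a limma adjusted p of 0.551.

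Mlc2 encodes the regulatory light chain of muscle myosin. Its slide values were 0.46 and -0.10 in pair 1, 0.30 and 0.48 in pair 2, and 0.56 and 0.59 in pair 3. Only slide 3, at -0.10, lay below 0, and 15 of its 18 spots were positive. The pair ratios averaged 0.39 ± 0.20 (SD, n = 3), 1.31-fold (limma adjusted p = 0.589, unadjusted p = 0.033).

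Prm encodes paramyosin, a coiled-coil rod protein of the thick-filament core, and its 2 probes went opposite ways. Probe 4209 had pair ratios of -0.04, 1.16 and 0.41 with a mean of 0.51 ± 0.60 (SD, n = 3). Its slide values were -0.53 and 0.45 in pair 1, 1.73 and 0.58 in pair 2 and 0.84 and -0.03 in pair 3, and the high value of slide 30 contains 1 spot at 3.33 beside a lowest spot of 0.85. Probe 3469 had pair ratios of 1.60, -0.62 and -1.02 and a mean of -0.02 ± 1.41 (SD, n = 3). Only 8 of its 18 spots had a value, 4 of the 6 slides were represented by 1 spot each, and its value of 4.22 on slide 2 was such a single spot. On slide 30 the 2 spots of probe 3469 stood at -4.61 and 2.80. Pair by pair, probe 3469 differed from probe 4209 by 1.63, -1.78 and -1.43. The limma adjusted p was 0.696 for probe 4209 and 0.997 for probe 3469.

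The gene fln encodes flightin, a myosin-binding protein of the indirect flight muscle. Its slide values were -0.29 and -0.70 in pair 1, 0.33 and 0.29 in pair 2, and 0.38 and 0.11 in pair 3. Both slides of pair 1 were negative and all 4 slides of the other pairs were positive, and the spots of slides 2 and 3 all lay between -0.97 and -0.13. The mean was 0.02 ± 0.45 (SD, n = 3), with a limma adjusted p of 0.987.

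The thin filament was measured through up, which encodes troponin T, the subunit that ties the troponin complex to tropomyosin. Both of its probes were positive in all 3 pairs. Probe 3516 had slide values of 0.08 and 0.34, 0.56 and 0.50, and 0.75 and 0.88 in pairs 1, 2 and 3. All 6 slides and 17 of 18 spots were positive, and the slides of a pair lay within 0.26 of each other. Its mean was 0.52 ± 0.31 (SD, n = 3), 1.43-fold (limma adjusted p = 0.557, unadjusted p = 0.0267). Probe 3652 had 0.54 and 1.20 in pair 1, 0.19 and -0.12 in pair 2, and 0.62 and -0.14 in pair 3. Slides 29 and 25 were thus slightly negative, and the mean was 0.38 ± 0.43 (SD, n = 3, limma adjusted p = 0.697). The probes ranked the pairs differently: pair 3 was highest for probe 3516, at 0.82, and pair 1 for probe 3652, at 0.87.

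Among the giant proteins, bt was positive with every probe on every slide. It encodes projectin, a kinase-bearing member of the titin family that forms part of the elastic connecting filaments in flight muscle and lies along the thick filaments in other muscles. The 54 spots of its 3 probes were all positive, from 0.03 to 1.06. Probe 3244 had slide values of 0.79 and 0.58 in pair 1, 0.74 and 0.32 in pair 2, and 0.93 and 0.62 in pair 3. Its pair ratios of 0.69, 0.53 and 0.78 averaged 0.66 ± 0.12 (SD, n = 3), 1.58-fold. By limma p-value this probe had rank 32 of the 5002 probes, with an unadjusted p of 0.00291 and an adjusted p of 0.416.

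The other bt probes gave similar ratios with a wider spread. Probe 2318 had slide values of 0.62 and 0.68, 0.27 and 0.28, and 0.89 and 0.48, and averaged 0.54 ± 0.23 (SD, n = 3, limma adjusted p = 0.482). Probe 3731 had 0.71 and 0.87, 0.14 and 0.10, and 0.47 and 0.35, and averaged 0.44 ± 0.33 (SD, n = 3, limma adjusted p = 0.623). In all 3 probes pair 2 was the lowest, at 0.27 for probe 2318, 0.53 for probe 3244 and 0.12 for probe 3731. Within a pair the 3 probes differed by at most 0.41. They are annotated to the same gene and share slides and RNA, so they are repeat readings of projectin transcripts and not replicates of the diet comparison. Over the 18 columns, which share slides and RNA, bt probe pairs correlated at r = 0.27 to 0.63.

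**Figure D2:**
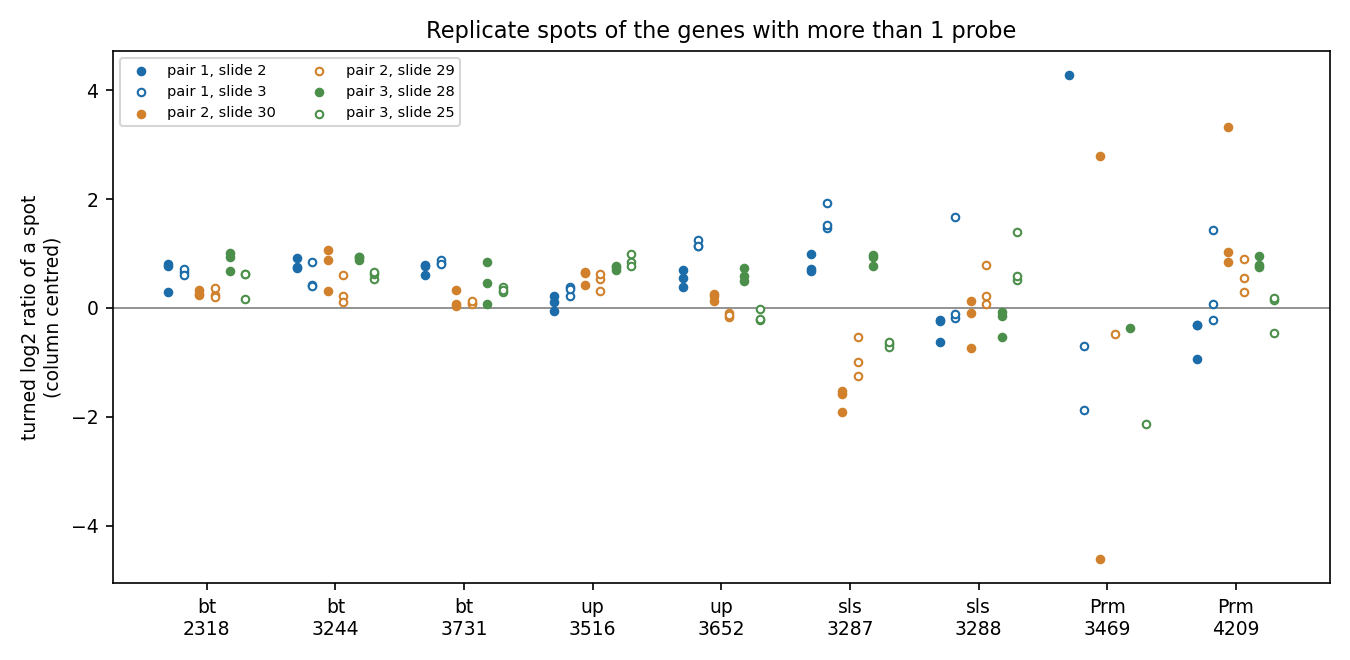
Turned log2 ratios of single spots (vertical axis), each column centred on its median, for the 9 probes of the 4 genes with more than 1 probe. Colours mark flip pairs, filled circles slides with banana and open circles slides with cornmeal RNA in channel 1. All 54 spots of bt lie above 0, the spots of each slide lie close together for sls probe 3287 while its slides range widely, and Prm probe 3469 has 8 spots from -4.61 to 4.28.

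Obsc encodes obscurin, a giant protein with kinase domains that lies at the M-line, in the middle of the thick filament. Its probe 619 had slide values of 0.65 and 0.47 in pair 1, 0.32 and 0.22 in pair 2, and 0.67 and -0.04 in pair 3. Of its 6 slides 5 and of its 18 spots 16 were positive. The pair ratios of 0.56, 0.27 and 0.32 averaged 0.38 ± 0.15 (SD, n = 3), 1.30-fold (limma adjusted p = 0.555, unadjusted p = 0.0255). Counted as Unc-89, an addition made after its value was seen, it would bring the members to 14, those with an unadjusted p under 0.05 to 6 and the median of the giant proteins to 0.41.

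The probes of sls went apart. This gene encodes titin-like proteins, among them kettin, that span from the Z-disc towards the thick filament, and its transcripts are extensively spliced. Probe 3287 had slide values of 0.79 and 1.66 in pair 1, -1.68 and -0.91 in pair 2, and 0.90 and -0.65 in pair 3. Pair 1 was positive on both slides, pair 2 negative on both and pair 3 split by slide, so that the mean of 0.02 ± 1.26 (SD, n = 3) hides pair ratios of 1.22, -1.30 and 0.12. The spots of a slide stayed together for this probe, with a median SD of 0.19 among the spots of a slide.

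Probe 3288 of sls had pair ratios of 0.05, 0.07 and 0.30, and a mean of 0.14 ± 0.14 (SD, n = 3). Its slide values followed the channel: the slides with banana in channel 1 stood at -0.37, -0.23 and -0.24 and those with cornmeal in channel 1 at 0.48, 0.37 and 0.84. The small spread between its pairs is therefore one of means over slides of opposite sign. On slide 3 its spots ranged from -0.19 to 1.67 and on slide 30 from -0.73 to 0.13. With the median over spots in place of the mean, its pair 1 ratio was -0.21 and its mean ratio 0.02. The limma adjusted p was 0.997 for probe 3287 and 0.793 for probe 3288, and the probes differed by 1.17, -1.37 and -0.18 in pairs 1, 2 and 3. The annotation used here does not say which sls transcripts each probe detects.

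Zasp52, a PDZ and LIM domain protein of the Z-disc, had slide values of 0.59 and 0.27 in pair 1, 0.20 and 0.08 in pair 2 and 0.14 and -0.30 in pair 3. It was positive on 5 of 6 slides with values that were mostly small, and averaged 0.16 ± 0.25 (SD, n = 3, limma adjusted p = 0.803).

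Compared as classes, thick filament, thin filament and giant proteins all had positive median ratios. The median was 0.39 for the 5 thick-filament probes, 0.45 for the 2 thin-filament probes and 0.44 for the 5 giant-protein probes. In pair 1 the medians were 0.18, 0.54 and 0.69, in pair 2 they were 0.33, 0.28 and 0.12, and in pair 3 they were 0.41, 0.53 and 0.41. The thick filament thus had the lowest median of the 3 classes in pair 1 and the highest in pair 2. Without pair 2 the medians were 0.29, 0.53 and 0.67. Without pair 1 they were 0.46, 0.41 and 0.27, and without pair 3 they were 0.49, 0.41 and 0.46. The order of the classes thus depended on the pairs used. Within a class, means ran from -0.02 to 0.65 among thick-filament probes and from 0.02 to 0.66 among giant-protein probes. No test was made over members of a class, and with 1 gene for the thin filament and 2 for the giant proteins the class medians rest on single genes. With probes of 1 gene averaged, the medians were 0.32 for thick filament, 0.45 for thin filament and 0.31 for giant proteins. Of the 5 giant-protein probes 3 are of bt, whose gene average was 0.55, against 0.08 for sls.

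**Figure D3:**
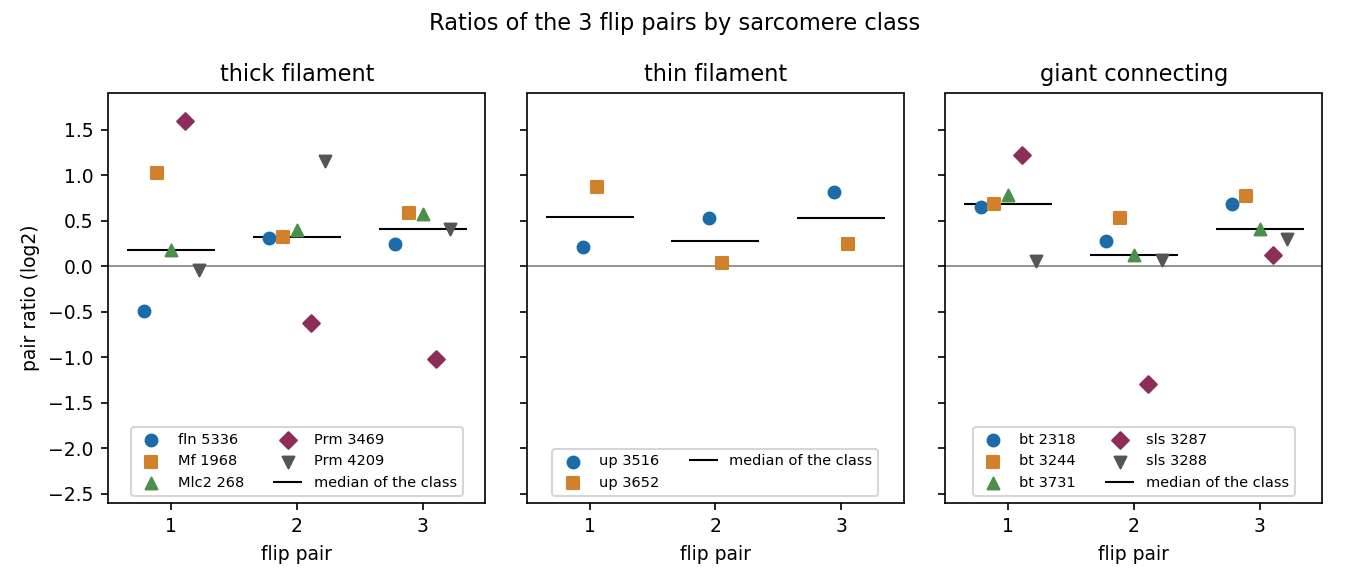
Pair ratios in log2 (vertical axis) of each probe in the 3 flip pairs, for thick-filament, thin-filament and giant connecting proteins, with the class median as a black line. Medians of the 3 classes lie between 0.12 and 0.69 in every pair, and Prm probe 3469 and sls probe 3287 lie farthest from them.

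Spread was described at 3 levels of repeats, by measures that are not alike, so the levels are not ranked. The median SD of the 3 pair ratios was 0.33 for the members and 0.22 over all probes tested. The median difference between the slides of a pair was 0.32 for members and 0.38 for all probes, and the median SD among the spots of a slide was 0.17 and 0.15. No difference in spread between members and all probes was tested.

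**Figure D4:**
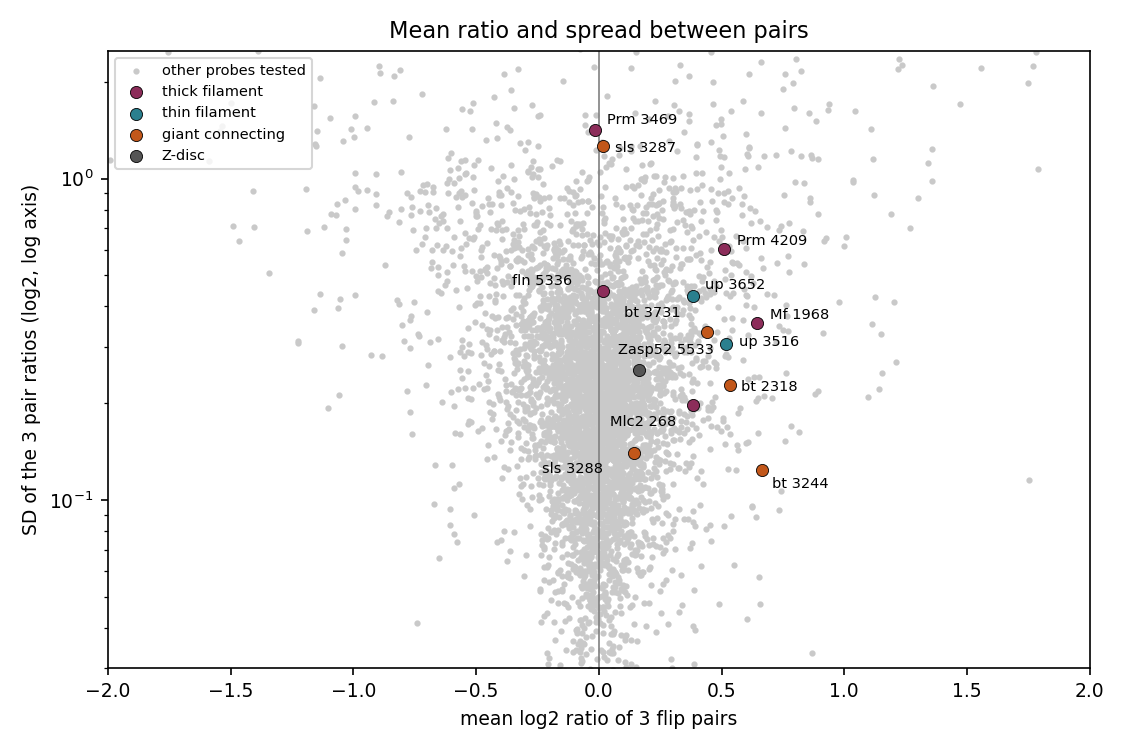
Mean log2 ratio of the 3 pairs (horizontal axis) against the SD of the pair ratios (vertical axis, log scale) for all probes tested, with sarcomere probes coloured by class. The plot leaves out 125 other probes beyond its limits. The bt, Mf, up and Mlc2 probes lie between 0.38 and 0.66 in mean ratio, and bt probe 3244 combines the highest mean of the members with an SD of 0.12.

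A channel effect keeps its sign when the dyes are flipped, and it was small for most members. It was tested on pair means that had not been turned. An unadjusted limma p under 0.05 was found for 1 of the 13 probes, against 9.3% of all probes, and 0 passed the adjusted threshold (0% of all probes). That probe was sls probe 3288, with a channel component of -0.42 (unadjusted p = 0.011, limma adjusted p = 0.525). For the 3 bt probes the channel component was 0.05, 0.16 and 0.00, compared with ratios of 0.54, 0.66 and 0.44 that turned with the flip. For Prm probe 3469 it was 0.98 (limma adjusted p = 0.568), which includes the single spot on slide 2.

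Differences between the 3 flip pairs were tested against the difference between slides of a pair with a limma F test. An unadjusted p under 0.05 was reached by 2 of the 13 members (9.3% of all probes) and 0 passed the adjusted threshold (0.1% of all probes). These were sls probe 3287 (unadjusted p = 0.0389, limma adjusted p = 0.492) and fln (unadjusted p = 0.0423, limma adjusted p = 0.511). In both, the slides of 1 pair were all positive while those of another were all negative, an arrangement that 26.6% of all probes showed. For bt the adjusted p of this test was 0.814, 0.942 and 0.641 for probes 2318, 3244 and 3731.

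Genes that act beside these proteins in muscle had list medians between -0.03 and 0.09. Other sarcomere and Z-disc genes had 15 probes of 11 genes with a median ratio of 0.09. The mean ratio was positive for 13 of these 15 probes, against 49.6% of all probes. In all 3 pairs 5 of the 15 were positive (15.2% of all probes) and 1 was negative (15.1%). An unadjusted limma p under 0.05 was reached by 3 of the 15 probes, all positive, and 0 passed the adjusted threshold. Over all probes these shares were 7.96% for either sign, 4.26% for positive ratios and 0% after adjustment. The leading ones were l(2)efl, a small heat shock protein related to alpha-crystallin, with 0.78 ± 0.17 and pair ratios of 0.93, 0.82 and 0.60, and tn, a TRIM-family protein needed for the integrity of larval muscle, with 0.42 ± 0.11 (SD, n = 3 each). The third was Actn, the actin crosslinker alpha-actinin of the Z-disc, at 0.38 ± 0.22 (SD, n = 3), named after its value was seen. These 3 probes were positive on all 6 slides (3.82% of all probes), and their limma adjusted p was 0.416, 0.482 and 0.598.

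Calcium-handling genes had a median of -0.03 over 7 probes. The voltage-gated calcium channel gene Ca-alpha1D led them with 0.34 ± 0.05 (SD, n = 3, limma adjusted p = 0.537), and Orai probe 4755, of the store-operated calcium channel, followed with 0.14 ± 0.23 (SD, n = 3). Muscle attachment genes had a median of 0.02 over 12 probes. Pax, the adhesion protein paxillin, stood at 0.64 ± 0.09 and was positive on all 6 slides (SD, n = 3, limma adjusted p = 0.416), and the basement membrane collagen gene Col4a1 had 0.25 ± 0.11 (SD, n = 3). Ca-alpha1D and Pax were the 1 probe of each list with an unadjusted p under 0.05.

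Genes of muscle differentiation had a median of 0.02 over 5 probes, led by lmd at -0.14 and blow at -0.12. The energy-supply list had a median of -0.01 over 7 probes, led by Gpdh1 at -0.28 and Pfk at 0.10. An unadjusted p under 0.05 was found for 0 probes of either list. In all, 5 of the 46 probes of these 5 neighbouring lists had an unadjusted p under 0.05, or 10.9%, against the 7.96% of all probes given above.

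Markers of other tissues had list medians of either sign. The 3 neural probes had a median of -0.19 with all 3 means negative, led by nSyb at -0.32 and elav at -0.19. The 5 haemocyte probes had a median of -0.03, led by Pxn probe 4341 at -0.11 and NimC1 at 0.19. The 1 fat body probe, apolpp, had -0.91 ± 0.89 (SD, n = 3) with 0.06, -1.69 and -1.10 in the 3 pairs. Cuticle genes had a median of 0.22 over 13 probes, with -0.10, 0.60 and 0.16 in pairs 1, 2 and 3. An unadjusted F-test p under 0.05 for differences between pairs was found for 8 of them, against 9.3% of all probes. By p-value for the diet ratio they were led by Cpr72Ea at 0.65 and Cpr72Ec at -0.23. The 6 gut probes had a median of 0.05, led by mag at 1.14 and yip7 at -0.88. An unadjusted limma p under 0.05 for the diet ratio was reached by 4 of these 6, against 7.96% of all probes. Of the 4, 2 were positive and 2 negative, the others being Peritrophin-A at 1.12 and Jon65Aiii at -0.81, named after their values were seen. Among the other marker lists 1 of the 3 neural probes (nSyb, negative), 1 of the 13 cuticle probes (Cpr72Ea, positive) and 0 of the 5 haemocyte and 1 fat body probes had such a p, and 0 probes of any of these lists passed the adjusted threshold. Their part in the sarcomere ratios was not tested.

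Probes whose values over the columns were most like the mean of the 12 sarcomere probes with all 18 values were sought among 3438 other named probes. The highest Pearson correlations were those of SNF4Agamma (r = 0.88), PGRP-LB (0.87), hpo (0.85), GstE1 (0.84) and sbb (0.82). The 18 columns share 6 slides and 3 RNA pairs, and the highest of 3438 values was taken, so these are descriptions. The likeness is one of variation between columns, and a correlation does not compare levels. SNF4Agamma had a mean ratio of -0.02, hpo of 0.07, GstE1 of 0.03, sbb of 0.06 and PGRP-LB of 0.46, against a member median of 0.39. Each of these probes was positive on 2 or 3 of 6 slides. In pair 2 their ratios lay between -0.32 and -0.14, whereas 11 of the 13 members were positive there. Single members correlated with the mean of the others at r = -0.53 (Mlc2) to 0.54 (up probe 3652).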

How the data were processed

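Per the labels, each of the 18 samples is 1 spot set on a 2-colour slide. The authors deposited log ratios of the channels, used here as log2 values, which run from -16.02 to 13.21. Natural-log ratios of 16-bit signals cannot pass 11.09, but log2 ratios cannot pass 16 either, and the minimum is slightly past that too, so these bounds do not settle the base and log2 is an inference. Scanning, background correction, normalisation, dyes and numerator channel are not given in the sources used here. Channel intensities were not used here, so signal over background is unknown, and no sequence or coordinate is given.

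All 18 columns were used, with medians from -0.69 to 0.35 and 4860 to 5149 values each. Spot sets were averaged, slides centred on their median, slides with cornmeal in channel 1 turned in sign and the slides of a pair averaged. The 3 pair ratios of each of the 5002 probes with a value on all 6 slides entered a limma 3.58.1 fit (lmFit, eBayes, R 4.3.3) of the mean against 0 (2 residual and 2.11 prior degrees of freedom), two-sided, with Benjamini-Hochberg adjustment over all probes and a threshold of 0.05. Channel effects were tested on pair means not turned, and pair differences with an F test on 6 slides with terms for pair and orientation. Probes of 1 gene were kept apart. Genes came from the platform annotation, where 4955 probes have 1 gene, 85 several and 580 none, and 4876 of the 4955 were matched to the reference gene table by identifier.

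The labels name the flip partner of each slide, so the pairing comes from the labels. The procedure was tested on simulated data, in which the diet ratios and pair shifts put in were larger than those of any member. How often changes of the size reported here would be found was not tested. Members, classes, lists and alternatives were chosen with earlier results of these data known. Every member was named, and of each other list the 2 probes with the smallest p. The 5 most similar probes were taken by Pearson correlation over the 18 columns. Figures were drawn with matplotlib 3.10.9.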

Additional observations from a re-analysis of the deposited data

Results flagged for a closer look

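On 6 turned slides per probe, 1 of the 13 sarcomere probes had a slide far from the others. For Prm probe 3469, slide 2 stood at 4.22 and the next highest slide at -0.29, a gap of 0.764 of the whole range against a critical value of 0.625 (Dixon's test at the 95% level). Chance would flag about 1 in 20 such groups if the 6 slides were independent, and 13 probes were examined. The slides of a pair share RNA, and the slide values of this probe rest on unlike numbers of spots, so that rate is only a guide. The value on slide 2 is that of a single spot.

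For 2 sarcomere probes the flip pairs went opposite ways on every slide of a pair. Of all probes tested, 26.6% showed this arrangement, so it does not set these 2 probes apart. In fln the pair ratios spanned 0.806, with both slides of pair 1 negative and those of pairs 2 and 3 positive. In sls probe 3287 they spanned 2.52, with both slides of pair 1 positive and both of pair 2 negative. The limma F test of these differences gave adjusted p of 0.511 and 0.492.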

How the results depend on the processing

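In limma, 0 member probes passed the adjusted threshold for the diet ratio, the channel effect or pair differences under any alternative run, the lowest adjusted p being 0.0537, for bt probe 3244 with slides as units. With the 6 slides as units and the flip pair as replicate block (correlation of -0.0867 between slides of a pair), 19 of all probes and 0 members passed, and with no replicate block 1 and 0, against 0 in the pair-based fit, where 398 had an unadjusted p under 0.05. The count of 5 members with an unadjusted p under 0.05 became 1 of 13 with the plain one-sample statistic, where 340 of the 5002 probes had such a p. Without single pairs the count of members ranged from 2, without pair 3, to 5. Over all probes the count without single pairs ranged from 217, without pair 2, to 628, without pair 1, and was 342 without pair 3.

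Had the authors already turned the values, 1 of the 13 members would have an unadjusted p under 0.05, as would 465 of the 5002 probes. The median of members would be 0.06, of thick-filament probes 0.12, of thin-filament probes 0.0064 and of giant-protein probes 0.00041. The ratio would be -0.18 for Mf, 0.98 for Prm probe 3469, -0.055 for up probe 3516, -0.015 for sls probe 3287 and -0.42 for sls probe 3288. With the median over spot sets fln had -0.043 and sls probe 3287 -0.030. Without single pairs fln ranged from -0.13 to 0.28, Prm probe 3469 from -0.82 to 0.49 and sls probe 3287 from -0.59 to 0.67. The median of members ranged from 0.28, without pair 1, to 0.51, and that of giant-protein probes from 0.27, without pair 1, to 0.67, without pair 2. The other 10 probes kept the sign of their ratio in every fit on turned slides, but 5 of them moved by over 1.5 times without 1 pair: without pair 1 up probe 3652 fell from 0.38 to 0.14, bt probe 3731 from 0.44 to 0.27 and Zasp52 from 0.16 to 0.03, without pair 2 Prm probe 4209 from 0.51 to 0.19, and without pair 3 sls probe 3288 from 0.14 to 0.06. Prm probe 4209 had 0.78 without pair 1 and Zasp52 0.28 without pair 3.

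For the channel effect, members with an unadjusted p under 0.05 numbered 0 with the median over spot sets, 2 with the plain statistic and 1 to 2 without single pairs. Over all probes the count of 465 became 226, without pair 3, to 928, without pair 1 (270 without pair 2), and adjusted calls, 0 before, were 2 with no centring, 2 with the median over spot sets, 1 among probes with all 18 values and 0 to 12 without single pairs. For pair differences, 1 member instead of 2 had such a p with no centring or the median over spot sets, and 1 to 2 without single pairs. Adjusted calls over all probes, 5 before, were 9 with probes of one gene averaged, 26 with the median, 79 among probes with all 18 values and 0 to 52 without single pairs. Centring each column and counting Obsc as Unc-89 were added after seeing the data; the first moved no count of members. The causes were not tested.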
